A study of Mus musculus with 12 samples.

Results

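The 6 genes described here are the gel-forming airway mucins Muc5b and Muc5ac, the membrane-tethered mucins Muc20 and Muc4, the cytochrome P450 gene Cyp2f2, and Gm15883, a noncoding gene annotated on the strand opposite Cyp2f2. They were chosen by name and make up 6 of the 55487 rows of the count table, where 1 row is 1 annotated gene. All 6 passed the filter on low counts, which left 13181 rows for testing. Each gene with an annotated partner on the other strand is given beside that partner, so Gm15883 stands beside Cyp2f2 and Muc20 beside Muc4.

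RNA was sequenced from nasal tissue of male C57BL/6 mice of 6 weeks, labelled as nasal epithelium, in 12 libraries. The vehicle group (PBS-vehicle) held replicates 2, 6, 4 and 5, whose titles carry a D10 tag. The day 5 group was exposed to KDP20, a preparation of diesel particles by the series title, and held replicates 8, 5, 7 and 6. The day 10 group, also exposed to KDP20, held replicates 1, 3, 2 and 5. No vehicle library carries a day 5 tag, so exposure and day cannot be told apart in the comparison of day 5 with vehicle. The labels do not say whether each library came from its own animal. All p-values below therefore rest on the spread between libraries, which may be technical.

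Airway mucus is built from gel-forming mucins, very large glycoproteins that link end to end after secretion and trap inhaled particles. Muc5b is made by glands and secretory cells and supports steady mucociliary clearance, and Muc5ac is the gel-forming mucin of surface goblet cells that is known to respond to irritants and type 2 cytokines. Membrane mucins such as Muc4 and Muc20 stay anchored in the apical membrane and line the cell surface. Cyp2f2 encodes a monooxygenase of club cells and of the nasal mucosa that is known for the bioactivation of naphthalene and styrene.

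Opposite rows matter here because partner genes share exon sequence on both strands of 1 locus. In GENCODE M21 on mm10, Cyp2f2 (ENSMUSG00000052974) spans chr7:27119909-27133660 on the plus strand. Gm15883 (ENSMUSG00000086868, class antisense) lies wholly within it at chr7:27124481-27130674 on the minus strand. Of the 1690 exon bases of Gm15883, 274 are shared with Cyp2f2 exons and the other 1416 lie in Cyp2f2 introns. The shared bases fall in coding exons 4 and 6 of Cyp2f2, at chr7:27124854-27124987 and chr7:27129754-27129893. The sequences below, read 5′ to 3′ from the GENCODE M21 transcripts, show what a read from this locus would look like on either strand. Capitals mark the bases that both genes hold in exons, and each Gm15883 stretch is the exact reverse complement of the capitals above it.
Cyp2f2 exon 4, chr7:27124854-27125003, plus strand: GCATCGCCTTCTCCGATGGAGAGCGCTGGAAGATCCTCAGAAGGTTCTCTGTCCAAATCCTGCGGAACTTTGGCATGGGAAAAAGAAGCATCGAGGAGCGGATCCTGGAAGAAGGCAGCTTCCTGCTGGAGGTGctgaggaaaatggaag
Gm15883 exon 4 stretch, chr7:27124854-27124987, minus strand: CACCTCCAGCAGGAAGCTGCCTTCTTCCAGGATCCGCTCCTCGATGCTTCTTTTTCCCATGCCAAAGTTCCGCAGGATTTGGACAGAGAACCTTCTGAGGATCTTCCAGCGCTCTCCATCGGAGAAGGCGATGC
Cyp2f2 exon 6, chr7:27129717-27129893, plus strand: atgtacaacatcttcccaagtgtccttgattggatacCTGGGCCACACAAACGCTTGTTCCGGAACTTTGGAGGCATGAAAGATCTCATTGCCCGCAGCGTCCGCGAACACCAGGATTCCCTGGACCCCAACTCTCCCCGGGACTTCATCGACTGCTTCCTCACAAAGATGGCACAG
Gm15883 exon 2 stretch, chr7:27129754-27129893, minus strand: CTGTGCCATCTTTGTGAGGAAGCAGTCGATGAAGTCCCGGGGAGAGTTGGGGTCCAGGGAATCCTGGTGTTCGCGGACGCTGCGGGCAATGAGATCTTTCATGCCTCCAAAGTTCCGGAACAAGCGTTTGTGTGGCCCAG

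Muc4 and Muc20 are tail-to-tail neighbours. Muc4 (ENSMUSG00000079620) spans chr16:32735886-32782391 on the plus strand with 11757 exon bases, and Muc20 (ENSMUSG00000035638) spans chr16:32777419-32797435 on the minus strand with 4027. Their exons share 627 bases. A stretch of 150 bases at chr16:32778985-32779134 is coding on both strands, in exon 25 of Muc4 and exon 4 of Muc20, and is shown because the same letters belong to a protein of each gene. All its bases are shared and stand in capitals.
Muc4 exon 25, plus strand: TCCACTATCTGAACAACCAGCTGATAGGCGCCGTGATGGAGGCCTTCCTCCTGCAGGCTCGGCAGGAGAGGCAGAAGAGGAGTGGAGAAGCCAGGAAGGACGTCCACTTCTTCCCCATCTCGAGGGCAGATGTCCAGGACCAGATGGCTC
Muc20 exon 4, minus strand: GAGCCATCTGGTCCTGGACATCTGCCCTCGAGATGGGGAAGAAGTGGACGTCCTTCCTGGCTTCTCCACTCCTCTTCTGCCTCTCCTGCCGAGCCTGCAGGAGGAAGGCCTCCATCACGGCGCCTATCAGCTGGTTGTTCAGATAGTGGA

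Muc5ac (ENSMUSG00000037974, chr7:141788972-141819231, plus strand, 10752 exon bases) and Muc5b (ENSMUSG00000066108, chr7:141839070-141873084, plus strand, 14964 exon bases) are adjacent, with 19838 bases between them. They close the gel-forming mucin cluster that runs Muc6, Muc2, Muc5ac, Muc5b. Neither has a row annotated on the opposite strand, so no shared stretch had to be assigned. Their counts still depend on the strand setting of the counting. Which strand of these loci the counts came from cannot be told from the table.

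The strand setting of the counting is not given in the sources used here. Of 476 rows whose every exon base lies within exons of the opposite strand, 394 held counts, and these rows took 4.82 to 6.26% of the counts of a library. Whether the counts in an opposite row came from the gene it is named for or from its partner cannot be told apart from the table. For the same reason, a row near 0 counts does not show that its gene was not expressed. Library totals ran from 1658420 to 3227138 counts, so 3 counts, the limit that a count of 0 allows, correspond to 0.930 to 1.81 CPM, the unit of levels below, which is a count relative to its library total after scaling by the trimmed mean of M values. The row with the most counts, CT010467.2, took 7.25 to 10.1% of counts in vehicle libraries, 9.69 to 12.6% at day 5 and, at day 10, 11.2% in replicate 1, 17.9% in replicate 3, 25.5% in replicate 2 and 22.9% in replicate 5. Scaling by the trimmed mean was applied across this difference, and results from a model that includes that share are given where it changes a call.

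The club cell label of Cyp2f2 was set beside the other markers of that cell type. Scgb1a1 and Scgb3a2, the secretoglobins that define club cells of the lower airway, held 0 to 1 counts in every library and have no opposite row. Of 8 club and secretory markers, 6 passed the filter. With the strand setting of the counting unknown, the low counts do not settle whether the label holds, and Cyp2f2 is described here as a gene and not as a measure of club cells.

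Levels differed widely among the 6 genes. Per kilobase of exon, the vehicle level was 13860 ± 1771 CPM for Gm15883, 62.7 ± 19.7 for Muc20, 36.7 ± 13.2 for Cyp2f2, 22.7 ± 2.83 for Muc5b, 9.64 ± 4.49 for Muc5ac and 1.77 ± 0.847 for Muc4 (SD, n = 4 each). The mean order was the same at day 5 and day 10. Cyp2f2 and Muc5b overlapped in the vehicle and day 10 libraries, and the other neighbours in the order did not overlap in any group. In CPM without the length scaling, Gm15883 ranked 3 among 13181 tested rows, Muc5b 475, Muc20 477, Muc5ac 2072, Cyp2f2 2600 and Muc4 6448.

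**Figure D1:**
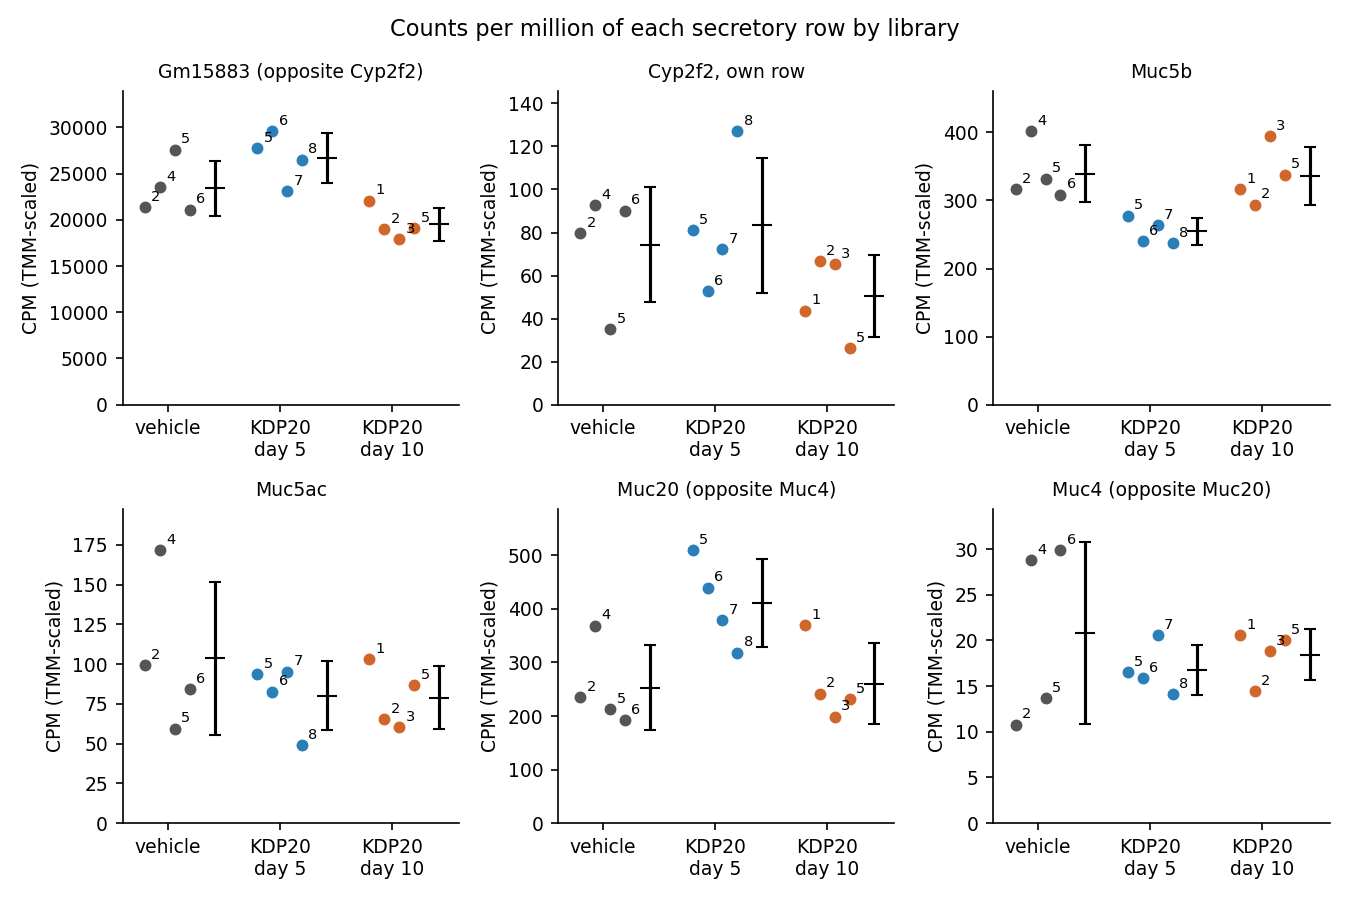
CPM of each of the 6 genes in every library (points, labelled with the replicate number) by group, with the mean and SD of 4 libraries beside the points; each vertical axis is linear and starts at 0. Day 10 points lie below day 5 points for Gm15883, and day 5 points lie below those of both other groups for Muc5b.

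Gm15883 held the third highest mean CPM of all tested rows, and its partner on the other strand, Cyp2f2, held a small part of the counts of the locus. Gm15883 stood at 21415, 21102, 23580 and 27597 CPM in vehicle replicates 2, 6, 4 and 5. It stood at 26527, 27727, 23096 and 29564 CPM in day 5 replicates 8, 5, 7 and 6, and at 22068, 17909, 18987 and 19124 CPM in day 10 replicates 1, 3, 2 and 5. The day 5 and day 10 libraries did not overlap, while vehicle overlapped both. The counts behind these values were 27656 to 84309 per library, 1.64 to 2.79% of all counts.

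The fall of Gm15883 from day 5 to day 10 passed the test. The mean was 26729 ± 2725 CPM at day 5 and 19522 ± 1782 at day 10 (SD, n = 4 each), 1.37-fold lower, with a log2 fold change of -0.45 (SE 0.13, edgeR quasi-likelihood adjusted p = 0.0244). Against the vehicle mean of 23423 ± 2993 CPM, the log2 fold change was 0.19 at day 5 (adjusted p = 0.494) and -0.26 at day 10 (adjusted p = 0.206), and neither passed. These are bulk libraries, so fewer cells of a type and less RNA per cell cannot be told apart, here and for every gene below. The call was lost without day 5 replicate 5 or 6 or day 10 replicate 2, 3 or 5 (log2 fold change -0.45 to -0.40, adjusted p 0.0635 to 0.0871 by edgeR). It was also lost once the CT010467.2 share entered the model (-0.40, adjusted p = 0.391) and with a correction for exon GC content (-0.37, adjusted p = 0.0829). With day 10 replicate 1, which has the lowest CT010467.2 share of its group, as the only day 10 library, the log2 fold change was -0.28 (adjusted p = 0.722, in a range of 0.00250 to 0.722 over 13 alternatives), in a fit of little power.

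Cyp2f2 itself was counted far less and varied more between libraries. Its row stood at 79.7, 90.1, 92.6 and 35.0 CPM in vehicle replicates 2, 6, 4 and 5, at 127.0, 81.1, 72.4 and 52.9 CPM in day 5 replicates 8, 5, 7 and 6, and at 43.7, 65.3, 66.6 and 26.3 CPM in day 10 replicates 1, 3, 2 and 5. The lowest library of vehicle and that of day 10 are both replicate 5, and all 3 groups overlapped. Group means were 74.4 ± 26.8, 83.3 ± 31.4 and 50.5 ± 19.2 CPM (SD, n = 4 each) from 46 to 331 counts a library. The log2 fold change from day 5 to day 10 was -0.73 (SE 0.29, 95% interval -1.32 to -0.14), and it missed the threshold at an adjusted p of 0.108 by edgeR. Against vehicle it was 0.15 at day 5 (-0.41 to 0.72) and -0.58 at day 10 (-1.17 to 0.01), with adjusted p-values of 0.841 and 0.222.

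Within a library, the Cyp2f2 row held 0.127 to 0.476% of the counts of the pair and Gm15883 the rest. The share of Gm15883 was 99.67% ± 0.136 in vehicle, 99.69% ± 0.123 at day 5 and 99.74% ± 0.112 at day 10 (SD, n = 4 each). Exact two-sided permutation tests of the 3 differences gave adjusted p-values of 0.771 to 0.886 over 9 share tests. Libraries did differ beyond counting error, as the Cyp2f2 share in vehicle replicate 5 was 0.127% (95% Wilson interval of the Gm15883 share 99.84 to 99.90%) against 0.425% in vehicle replicate 6 (99.51 to 99.63%). Intervals cover counting error only, here and below. Across the 12 libraries, log2 CPM of Gm15883 and Cyp2f2 had a Pearson r of 0.144 (libraries share groups and scaling).

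Muc5b varied less between libraries of a group (coefficient of variation 7.62 to 12.9%) than Muc5ac (25.1 to 46.6%). It stood at 316.6, 308.5, 401.3 and 331.9 CPM in vehicle replicates 2, 6, 4 and 5. At day 5 it stood at 236.8, 277.8, 263.5 and 240.5 CPM in replicates 8, 5, 7 and 6, and at day 10 at 316.9, 394.8, 293.8 and 338.1 CPM in replicates 1, 3, 2 and 5. Every day 5 library lay below every vehicle library and every day 10 library, and vehicle and day 10 overlapped.

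The rise of Muc5b from day 5 to day 10 passed the test, from 255 ± 19.4 to 336 ± 43.2 CPM (SD, n = 4 each), 1.32-fold, with a log2 fold change of 0.40 (SE 0.13, edgeR adjusted p = 0.0483). The day 5 level against the vehicle mean of 340 ± 42.3 CPM gave a log2 fold change of -0.42 (SE 0.13, 95% interval -0.68 to -0.15). That comparison did not pass, with an unadjusted p of 0.00327 and an adjusted p of 0.105 by edgeR; DESeq2's Wald test gave -0.40 at an adjusted p of 0.0298 (range over 13 alternatives 0.0298 to 0.344). Day 10 against vehicle gave -0.02 (95% interval -0.28 to 0.25), a value whose sign changed with the scaling. The day 10 call sat close to the threshold and was lost in 9 of 12 fits that left out 1 library, the exceptions being vehicle replicate 4, day 10 replicate 1 and day 10 replicate 2 (log2 fold change 0.31 to 0.46 over the 12, adjusted p 0.0152 to 0.194). It was kept in 6 of 13 other settings, and after adding the CT010467.2 share to the model the log2 fold change was 0.48 at an adjusted p of 0.345.

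Muc5ac, the inducible partner of Muc5b in the cluster, showed no change that passed a test. It stood at 99.2, 84.3, 171.7 and 59.4 CPM in vehicle replicates 2, 6, 4 and 5, at 48.9, 93.9, 95.3 and 82.7 CPM in day 5 replicates 8, 5, 7 and 6, and at 102.9, 60.3, 65.2 and 86.8 CPM in day 10 replicates 1, 3, 2 and 5. All groups overlapped, and vehicle replicate 4 was the highest library. Group means were 104 ± 48.3, 80.2 ± 21.6 and 78.8 ± 19.8 CPM (SD, n = 4 each). The log2 fold change was -0.38 at day 5 against vehicle (95% interval -0.89 to 0.13, edgeR adjusted p = 0.479) and -0.40 at day 10 against vehicle (-0.92 to 0.11, adjusted p = 0.340). Between the exposed groups it was -0.02 (-0.54 to 0.50, adjusted p = 0.971). The intervals against vehicle reach down to -0.89 and -0.92, so the data do not show that Muc5ac was the same in the groups.

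As a share of Muc5ac plus Muc5b counts, which needs no scaling between libraries, Muc5ac made up 22.6% ± 6.12 in vehicle, 23.6% ± 4.38 at day 5 and 19.1% ± 4.70 at day 10 (SD, n = 4 each). The share ran from 13.2% in day 10 replicate 3 (95% Wilson interval 10.97 to 15.9%) to 30.0% in vehicle replicate 4 (28.0 to 32.0%). None of the 3 differences passed the exact permutation test, with adjusted p-values of 0.686 to 0.886.

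Muc20 took most of the counts of the locus that it shares with Muc4. Muc20 stood at 235.7, 193.0, 368.6 and 213.2 CPM in vehicle replicates 2, 6, 4 and 5. It stood at 318.4, 510.1, 378.8 and 439.6 CPM in day 5 replicates 8, 5, 7 and 6, and at 370.4, 199.0, 241.7 and 231.3 CPM in day 10 replicates 1, 3, 2 and 5. Vehicle replicate 4 and day 10 replicate 1 lay within the day 5 range, and the other vehicle and day 10 libraries lay below it.

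The fall of Muc20 from day 5 to day 10 passed the test, from 412 ± 82.1 to 261 ± 75.4 CPM (SD, n = 4 each), 1.58-fold lower, with a log2 fold change of -0.66 (SE 0.20, edgeR adjusted p = 0.0326). Day 5 against the vehicle mean of 253 ± 79.3 CPM gave a log2 fold change of 0.70 (SE 0.19, 95% interval 0.30 to 1.10). Its unadjusted p was 0.00137 and its adjusted p 0.0754 by edgeR, so it did not pass, while 7 of 13 alternatives called it (adjusted p 0.000551 to 0.0906). The replicate number as a block, 1 of these 7, gave 1.21 (adjusted p = 0.000679). Only replicate numbers 2, 5 and 6 occur in more than 1 group, so that fit leaves few libraries to estimate the spread. Day 10 against vehicle gave 0.04 (95% interval -0.36 to 0.45, adjusted p = 0.923), and it moved outside that interval to 0.50 with the CT010467.2 share in the model (adjusted p = 0.999) and to 0.55 with day 10 replicate 1 as the only day 10 library (adjusted p = 0.849). The day 10 against day 5 call was lost without day 5 replicate 5, 6 or 7 or day 10 replicate 2, 3 or 5 (log2 fold change -0.70 to -0.54, adjusted p 0.0540 to 0.131). It was also lost once the CT010467.2 share entered the model (-0.31, adjusted p = 0.709). With day 10 replicate 1 alone it was -0.15 (adjusted p = 0.934, in a range of 0.000436 to 0.934 over 13 alternatives).

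Muc4, which carries EGF-like domains and is known as a partner of the receptor ErbB2, was the least counted of the genes, with 21 to 103 counts a library. It stood at 10.8, 29.9, 28.8 and 13.7 CPM in vehicle replicates 2, 6, 4 and 5, at 14.1, 16.6, 20.6 and 15.9 CPM in day 5 replicates 8, 5, 7 and 6, and at 20.6, 18.8, 14.4 and 19.99 CPM in day 10 replicates 1, 3, 2 and 5. The vehicle libraries spanned both exposed groups. The log2 fold changes were -0.32 at day 5 and -0.18 at day 10 against vehicle and 0.14 between the exposed groups, with 95% intervals of -0.92 to 0.27, -0.79 to 0.42 and -0.48 to 0.76 and edgeR adjusted p-values of 0.637, 0.757 and 0.827.

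Within the Muc20 and Muc4 pair, Muc20 held 92.2% ± 3.94 of the counts in vehicle, 96.0% ± 0.889 at day 5 and 93.1% ± 1.68 at day 10 (SD, n = 4 each). The lowest share, 86.6%, was that of vehicle replicate 6 (95% Wilson interval 83.3 to 89.3%). The share was 2.87 percentage points lower at day 10 than at day 5 with no overlap of libraries, and the exact two-sided permutation test gave p = 0.0286. No smaller p can come from groups of 4, and after adjustment over 9 share tests it was 0.257. Day 5 against vehicle differed by 3.77 points (exact p = 0.0571, adjusted p = 0.257). None of the 9 share tests passed after adjustment. Across the 12 libraries, log2 CPM of Muc20 and Muc4 had a Pearson r of 0.0359.

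**Figure D2:**
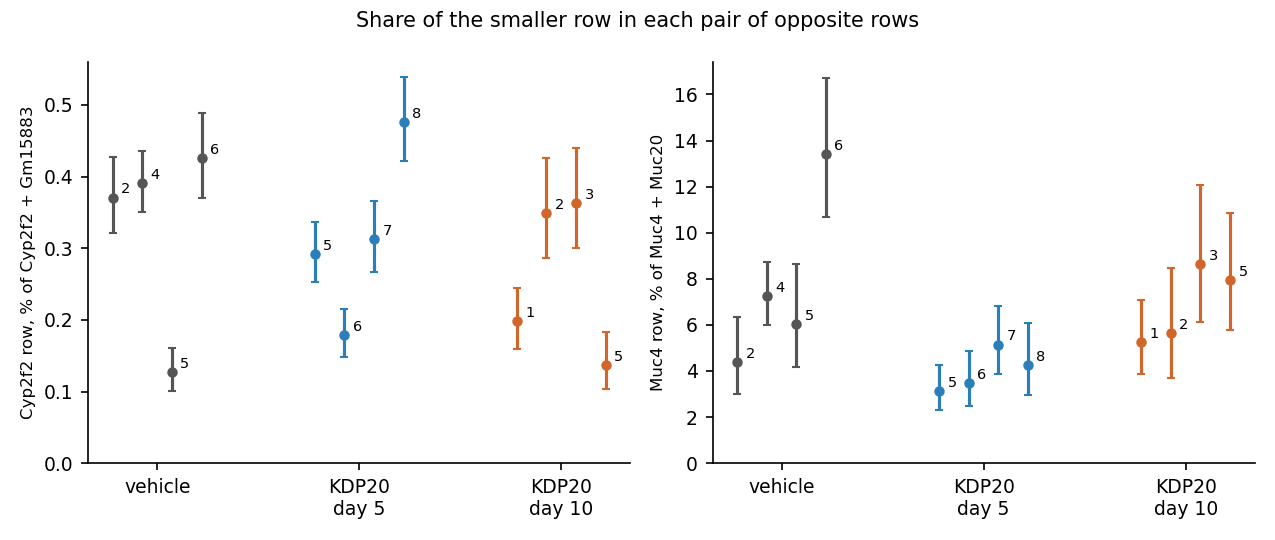
Share of the less counted gene in each pair, in percent of the counts of both (points, 1 per library, labelled with the replicate number; bars, 95% Wilson intervals); the left panel shows Cyp2f2 within Cyp2f2 plus Gm15883 and the right panel Muc4 within Muc4 plus Muc20. Muc4 shares of all 4 day 5 libraries lie below those of the 4 day 10 libraries, and vehicle replicate 6 is the highest at 13.4%.

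Read across comparisons, the 6 genes gave 0 calls for day 10 and 0 for day 5 when each was set against vehicle, and 3 between the exposed groups (edgeR quasi-likelihood, adjusted p under 0.05). At day 10 against vehicle, 1 gene had an unadjusted edgeR p under 0.05, as had 3137 of the 13181 tested rows. DESeq2 and limma-voom called 0 of the 6 genes, and 1362 and 986 of all tested rows. By edgeR, 7.08% of all tested rows were called in that comparison, 3.93% higher and 3.15% lower. At day 5 against vehicle, 2 genes had an unadjusted edgeR p under 0.05, as had 2144 of the 13181 tested rows. DESeq2 called 2 of the 6 genes (Muc20 and Muc5b) and 514 of all tested rows. Limma-voom called 1 (Muc20) and 284 of all tested rows. By edgeR, 0.660% of all tested rows were called there, 0.410% higher and 0.250% lower.

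Between day 10 and day 5, 1 of the 6 genes was called higher (Muc5b) and 2 lower (Gm15883 and Muc20), and DESeq2 and limma-voom called the same 3 genes. Of all tested rows edgeR called 10.1% in this comparison, 4.66% higher and 5.49% lower, while DESeq2 called 1606 rows and limma-voom 1217. The median log2 fold change over the 13181 rows was -0.01, -0.03 and 0.01 in the 3 comparisons. The count of calls moved with the day 10 libraries: 1337 rows were called with all of them, 2689 without replicate 1 and 623 without replicate 5. With the CT010467.2 share in the model 2 rows were called, and none of the 6 genes or of the list genes below was among them or was called between day 10 and vehicle. That share was higher in 3 of 4 day 10 libraries than in any library of the other groups, so share and day can hardly be separated in that model. It called Muc20 higher and Muc6 lower at day 5 than in vehicle. A fit with day 10 replicate 1 as the only day 10 library called 0 rows, which with 1 library in an arm says little about the other libraries. The comparisons of day 5 and day 10 with vehicle share the vehicle libraries, and those with day 5 share the day 5 libraries, so they are not independent.

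**Figure D3:**
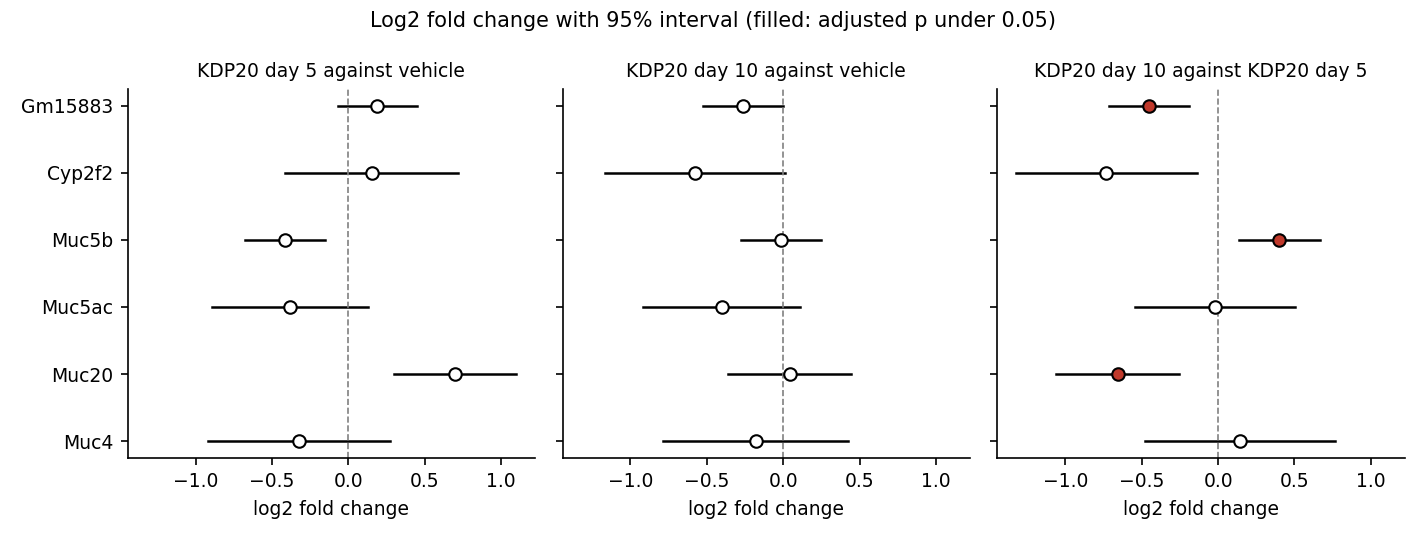
Log2 fold change of the 6 genes in each comparison (points) with the 95% interval (lines); filled points have an edgeR adjusted p under 0.05 and open points do not. The 3 filled points, for Gm15883, Muc5b and Muc20, are all in the panel of day 10 against day 5.

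Among the other gel-forming mucins, Muc6, which opens the cluster and is best known from gastric glands, stood at 447 ± 57.3 CPM in vehicle, 314 ± 34.7 at day 5 and 719 ± 168 at day 10 (SD, n = 4 each). It was higher at day 10 than in vehicle (log2 fold change 0.68, SE 0.15, adjusted p = 0.0121) and than at day 5 (1.19, SE 0.16, adjusted p = 0.000346). Muc2, the intestinal gel mucin, stood at 8.65 to 12.6 CPM as group means and was not called. Muc19, a salivary mucin, held at most 2 counts and was not tested. Of the 4 tested gel-forming mucins, 2 rose from day 5 to day 10 (Muc5b and Muc6) and 0 fell, beside 4.66% of all tested rows called higher and 5.49% lower, with a median log2 fold change of 0.46 beside 0.01 over all tested rows. Of these, the Muc5b call is the one lost in 9 of 12 fits that left out 1 library. At day 10 against vehicle 1 of the 4 rose, beside 3.93% of all tested rows called higher. At day 5 against vehicle edgeR called 0 of the 4, beside 0.660% of all tested rows. There 2 of the 4 had an unadjusted edgeR p under 0.05, as had 2144 of the 13181 tested rows. DESeq2 called Muc5b and Muc6 lower in that comparison, among 514 rows that it called, and limma-voom called 0 of the 4.

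Of 11 genes listed as membrane mucins, 10 had a row and 6 were tested. Muc20 was the only one called, lower at day 10 than at day 5, beside 5.49% of all tested rows called lower there. Besides Muc20 and Muc4, the highest mean in the list was that of Mcam at 17.0 CPM over all libraries. Mcam is a cell adhesion molecule and not a membrane mucin in the strict sense. The row opposite Muc13, Gm15657 (also opposite Heg1), stood at 146 ± 23.5, 188 ± 13.0 and 99.3 ± 39.1 CPM in vehicle, day 5 and day 10 and was lower at day 10 than at day 5 (log2 fold change -0.91, SE 0.19, adjusted p = 0.00534). Muc13 itself held 3 to 23 counts a library and gave -0.51 (adjusted p = 0.539).

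Mucus also depends on the goblet cell program and on the enzymes that start mucin O-glycosylation. Of 34 such genes, 11 were tested; the goblet cell regulators Spdef and Foxa3, the mucin folding factor Agr2, Clca1 and the trefoil factors Tff1, Tff2 and Tff3 did not pass the filter, with at most 15 counts in any library. At day 10 against day 5, 2 of the 11 rose and 0 fell, beside 4.66% of all tested rows called higher: Galnt7 (36.3 ± 9.69 to 63.9 ± 22.7 CPM, log2 fold change 0.81, adjusted p = 0.0272) and Galnt1 (6.45 ± 0.813 to 13.9 ± 2.27 CPM, log2 fold change 1.10, adjusted p = 0.0326), both O-glycosylation transferases. Fut2, a fucosyltransferase that decorates mucins, and Pigr, the receptor that carries IgA into mucus, had means of 46.1 and 43.8 CPM and were not called. Against vehicle, edgeR called 0 of the 11 at either day, beside 7.08% of all tested rows at day 10 and 0.660% at day 5. An unadjusted edgeR p under 0.05 was held by 2 of the 11 at day 10 and 0 at day 5. Of the 13181 tested rows, 3137 and 2144 held one. DESeq2 and limma-voom also called 0 of the 11 against vehicle.

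Opposite rows of this list were mixed. Gm15318, opposite Tff1, stood at 32.0 ± 12.4, 61.6 ± 21.4 and 23.4 ± 14.2 CPM in vehicle, day 5 and day 10 and was lower at day 10 than at day 5 (log2 fold change -1.37, adjusted p = 0.0108). Galnt6os, opposite Galnt6, was higher at day 5 than in vehicle (185 ± 15.3 to 283 ± 47.9 CPM, log2 fold change 0.62, adjusted p = 0.0384). The rows 1810008B01Rik, opposite Galnt2, and AW046200, opposite Galnt7, had means of 166 and 137 CPM and were not called by edgeR.

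Of 17 club cell genes, 11 were tested. Scgb1c1, a secretoglobin of nasal glands, fell from 46.2 ± 23.2 CPM in vehicle to 13.96 ± 5.75 at day 10 (log2 fold change -1.74, SE 0.42, adjusted p = 0.0167) and from 39.9 ± 24.4 at day 5 (-1.51, SE 0.43, adjusted p = 0.0259). Its call at day 10 against day 5 was not made by DESeq2 or limma-voom, and limma-voom did not call it against vehicle. C330022C24Rik, opposite Scgb1c1 and Urah, stood at 1348 ± 195, 1887 ± 206 and 932 ± 406 CPM and was lower at day 10 than at day 5 (-1.02, SE 0.20, adjusted p = 0.00365). Bpifa1, an abundant secreted protein of the upper airway, gave -0.94 between the same groups (adjusted p = 0.0557), and Chad had the next highest mean after Cyp2f2, 60.7 CPM, and was not called. The median of the 11 was 0.10 between day 10 and day 5, beside 0.01 over all rows.

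The nasal cytochrome P450 genes and their partners, the group to which Cyp2f2 belongs by enzyme function, gave 0 calls among 12 tested own rows in all 3 comparisons by edgeR. Of all tested rows, 7.08% were called comparing day 10 with vehicle, 0.660% comparing day 5 with vehicle and 10.1% comparing the exposed groups. With 12 rows, 0 calls do not set the list apart from all tested rows. Unadjusted edgeR p-values under 0.05 numbered 0 of 12 for day 10 against vehicle, 1 for day 5 against vehicle and 4 between exposed groups. The same cut held 3137, 2144 and 3252 of the 13181 tested rows. DESeq2 called 1 (Cyp2t4, between day 10 and day 5, where it called 1606 of all tested rows) and limma-voom 0. Cyp2a5, an olfactory mucosa P450 that hydroxylates coumarin, stood at 204 ± 25.5, 185 ± 44.1 and 238 ± 41.3 CPM in vehicle, day 5 and day 10. Cyp2t4 had a mean of 107 CPM. Gm15883 was the only one of 4 opposite rows of this list that was called, lower at day 10 than at day 5, beside 5.49% of all tested rows. Another, Gm42375 opposite Cyp2a4, had a mean of 31.3 CPM.

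Of 17 regulators of mucus output, 10 were tested. Notch3, a receptor of the pathway that sets secretory against ciliated fate, rose from 68.0 ± 7.59 CPM at day 5 to 115 ± 20.2 at day 10 (log2 fold change 0.75, SE 0.16, adjusted p = 0.00515). Its vehicle level was 102 ± 15.4 CPM, from which day 10 differed by 0.16 (adjusted p = 0.563) and day 5 by -0.59 (adjusted p = 0.0708). Foxa1, a forkhead factor of airway epithelium, rose from 30.8 ± 2.34 to 47.9 ± 5.94 CPM (0.64, SE 0.18, adjusted p = 0.0259). Adam17, the sheddase that frees EGF receptor ligands, had a mean of 40.5 CPM and was not called. Areg and Egfr held at most 2 and 9 counts. Of the 5 opposite rows 0 were called in any comparison by edgeR. Of all tested rows, 7.08% (day 10 from vehicle), 0.660% (day 5 from vehicle) and 10.1% (day 10 from day 5) were called. In that order, 2, 3 and 0 of the 5 had an unadjusted edgeR p under 0.05, beside 3137, 2144 and 3252 of the 13181 tested rows. DESeq2 and limma-voom each called Gm17276, opposite Notch3, higher at day 10 than in vehicle. Gm17276, Gm48236 opposite Ahr and Gm43917 opposite Tgfa had the highest means, 218, 85.3 and 43.3 CPM.

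**Figure D4:**
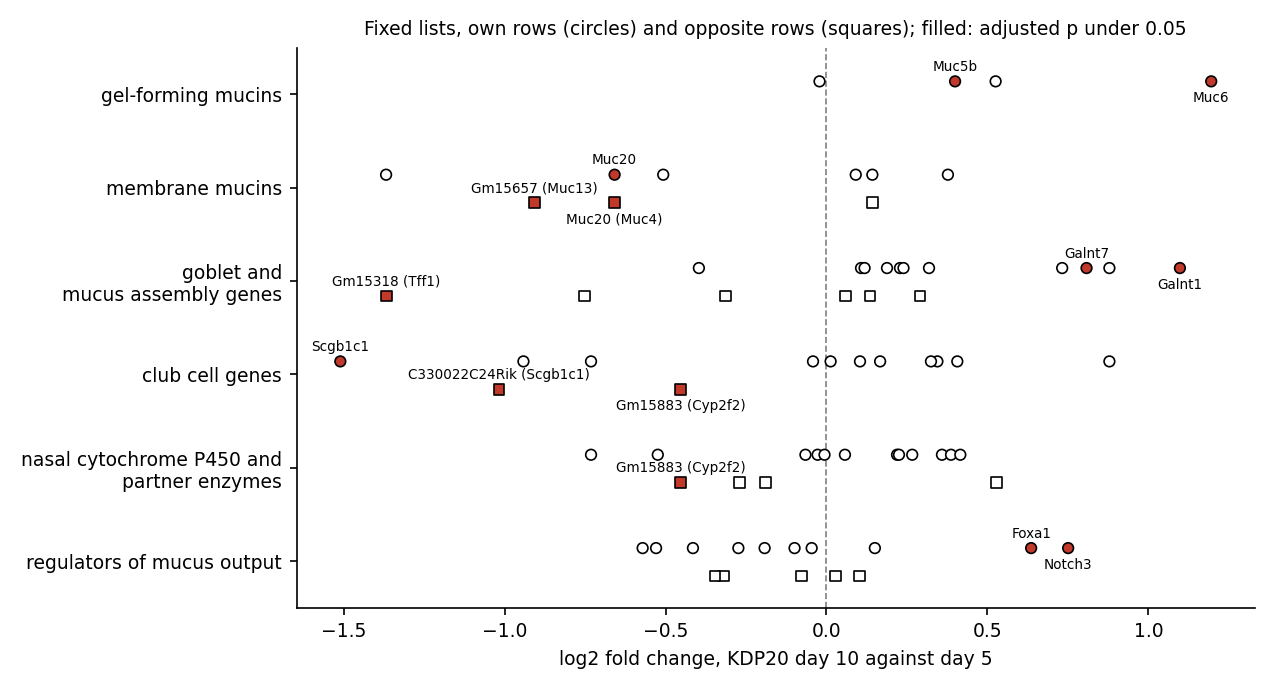
Log2 fold change from day 5 to day 10 (horizontal axis) of every tested row of the 6 gene lists (vertical axis), with circles for own rows and squares for rows on the opposite strand, the gene they lie opposite being in brackets; filled symbols have an edgeR adjusted p under 0.05 and are named. Filled circles of the gel-forming mucins, the goblet and mucus assembly genes and the regulators lie right of 0. The filled circles of Muc20 and Scgb1c1 and all filled squares lie left of 0. Muc20 is drawn both as a circle and as a square, and Gm15883 as a square in both lists that hold Cyp2f2.

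Markers of other cell types also varied between the groups. Summed CPM of 10 ciliated markers was 379 to 418 in vehicle, 307 to 367 at day 5 and 252 to 386 at day 10. Of 7 tested own rows, edgeR called 1 higher (Dnah9) and 1 lower (Ccdc39) at day 10 than at day 5. Of all tested rows, 4.66% were called higher and 5.49% lower. Among 3 rows opposite ciliated markers, Fam166a opposite Tubb4b was called lower there (-0.38, edgeR adjusted p = 0.0483). For 9 sustentacular and Bowman gland markers, which include Muc5b, summed CPM was 989 to 1425, 707 to 1424 and 726 to 1006. Between day 10 and day 5, 1 of 9 was higher (Muc5b) and 1 lower (Obp2a), beside the same shares of all tested rows. Own rows of 5 basal markers summed to 23.9 to 60.7, 35.3 to 41.8 and 34.5 to 77.6 CPM, with a median log2 fold change of 0.55 between day 10 and day 5 over the 3 tested and 0 called. The row opposite the basal keratin Krt5, Gm44323, stood at 304 to 534, 395 to 1085 and 380 to 595 CPM, -0.57 in that comparison (adjusted p = 0.0996). At day 5 it was called higher than in vehicle (0.94, edgeR adjusted p = 0.0469), beside 0.410% of all tested rows. Skeletal muscle markers had 1 of 2 tested own rows called higher and 1 of 4 tested opposite rows called lower at day 10 than at day 5. Their 7 own rows summed to 102 to 129, 92.0 to 131 and 130 to 207 CPM, and Atp2a1, the calcium pump of fast muscle, was higher at day 10 than in vehicle (0.57, adjusted p = 0.0385) and than at day 5 (0.95, adjusted p = 0.00204). The other tested own row, Ckm, gave -0.0093 between day 10 and day 5 (edgeR adjusted p = 0.987). The 5 rows opposite muscle markers summed to 21.2 to 206, 27.1 to 1853 and 37.7 to 1113 CPM. Their median was -1.28 between day 10 and day 5 over the 4 tested. Gm48752, opposite Mybpc1, was called lower there (-1.70, edgeR adjusted p = 0.0222) and higher at day 5 than in vehicle (2.19, adjusted p = 0.0344). The other tested opposite rows had SE of 0.915 to 1.12 between day 10 and day 5 and were not called. Of 8 leukocyte markers 3 were tested, and Itgam, S100a8, S100a9 and Cd3e held at most 3 counts in every library; all 8 together summed to 17.8 to 27.1, 13.9 to 25.1 and 22.1 to 32.0 CPM. Squamous markers summed to 112 to 166, 147 to 153 and 153 to 212 CPM. Lor, a protein of the cornified envelope, was higher at day 10 than in vehicle (1.13, adjusted p = 0.00824) and than at day 5 (0.79, adjusted p = 0.0267). Gm11940, opposite Krt10, was lower at day 10 than at day 5 (-3.67, edgeR adjusted p = 0.00448), with 0 to 53 counts a library. Own rows of olfactory neuron markers summed to 291 to 440, 307 to 492 and 326 to 454 CPM. The 4 rows opposite them summed to 11622 to 15777, 12024 to 15653 and 12920 to 15928 CPM. At day 10 against vehicle, edgeR called Gm11149 opposite Ncam1 higher (0.49, adjusted p = 0.0381) and Mppe1 opposite Gnal lower (-0.53, adjusted p = 0.0338). Of all tested rows, 3.93% were called higher and 3.15% lower there. Own rows of red cell markers summed to 149 to 183, 144 to 166 and 119 to 173 CPM. The part of these differences in the results above was not tested.

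Likeness over the 12 libraries was searched among the 7053 other rows whose log2 CPM averaged 4 or more, and is given as Pearson r of log2 CPM, a description over libraries that share groups, depth and scaling. Gm15883 was most like 4921516A02Rik opposite Pdxk (0.946), Gm24853 opposite Synj2bp (0.932) and Tmem151b opposite Tcte1 (0.931). Cyp2f2 was most like Eef1a1, a translation elongation factor (0.980), Bpifb4 (0.946) and Ltf, the secreted iron-binding protein lactoferrin (0.944); none of these rows lies opposite another gene. Muc20 was most like Gm15929 opposite Tmc4 (0.902), Rtn4ip1 opposite Crybg1 (0.902) and Gm27395 opposite Kcnq1ot1 (0.897). Muc5b was most like Cbs (0.898), the chaperone gene Hsp90aa1 (0.885) and Wipf3 (0.885). Muc5ac was most like Gm45509 (0.893), Gm5338 (0.879) and Rbm48 (0.849), and Muc4 most like G6pdx (0.789), Zfp36l2 (0.774) and Gm17034 (0.774).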

How the data were processed

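Per the submitters' processing notes, reads were handled with FastQC, Trim Galore, STAR and HTSeq on mm10, with no versions. The sources used here give neither strand setting nor annotation. The authors deposited 1 table of raw counts per gene for all 12 libraries, used as deposited. Every column of values matched 1 library. The 6 genes, the lists and the alternatives were chosen with earlier results of these data known.

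Counts were scaled by the trimmed mean of M values and tested with edgeR 4.0.16 (filterByExpr, glmQLFit, glmQLFTest) in 1 model of 12 libraries, with Benjamini-Hochberg adjustment over 13181 tested rows, which hold 98.3% of counts, and a threshold of 0.05. The common biological coefficient of variation was 0.213. Shares were compared by exact two-sided permutation tests in scipy 1.17.1 (9 tests). Rows were called opposite where exons of GENCODE M21 shared at least 50 bases on the other strand (bedtools 2.31.1). M21 held 55141 of 55487 rows.

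Genes are named by this rule: the 6 genes throughout; from each list, the called rows and up to 3 tested rows with the highest mean CPM, own and opposite; and for each of the 6 genes the 3 most alike rows. Regulators and goblet genes named as untested fall outside it and were chosen after their counts were seen, as were marker rows. Some rows that the rule selects are not reported here. Pairs of libraries of 1 group differed 3.17 to 22.4 times more than counting noise (chi-square per degree of freedom, 18 pairs), so none was treated as a duplicate. The test was checked on simulated data, where it recovered most of the larger planted changes, missed many of the smaller ones, and made false calls somewhat more often than its threshold states. Changes were planted at day 10 only, in rows with a higher mean CPM than Cyp2f2, Muc5ac and Muc4. The check therefore does not cover these genes, and it gave each row the same spread in all groups. Alternatives were other scalings and filters, DESeq2 1.42.0, limma-voom (limma 3.58.1), the compared libraries alone, a replicate block, the CT010467.2 share as covariate, a loess correction for GC content, summed pairs, each library left out and, chosen after seeing the data, day 10 replicate 1 as the only day 10 library.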

Additional observations from a re-analysis of the deposited data

Results flagged for a closer look

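In the day 5 group, the Muc5ac share of Muc5ac plus Muc5b counts had 1 library far from the others: replicate 8 at 17.1% against 25.3 to 26.6% in the other libraries. Its gap to the nearest library was 0.862 of the group's range, above Dixon's critical value for 4 values. Of 27 groups examined this was the only one, and chance alone gives about 1 in 20.

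The exposed groups differed from each other, day 10 against day 5, for Gm15883 (-0.45 on the log2 scale, lower at day 10), Muc5b (0.40, higher at day 10) and Muc20 (-0.66, lower at day 10), each by edgeR. The vehicle libraries cancel in this contrast, none of the 3 genes passed against vehicle at either day, and exposure and day cannot be told apart at day 5. These are the 3 calls described above.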

How the results depend on the processing

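Values are log2 fold changes, with adjusted p-values in brackets, and concern the 6 genes in 3 comparisons. Day 10 against day 5 kept its direction for Gm15883, Cyp2f2, Muc5b and Muc20 in all 13 alternatives and in all 12 fits without 1 library, but the 3 calls did not hold throughout. The cause was not tested for any change below, except that fewer libraries or rows enter some fits. With the share of CT010467.2 as covariate, 0 genes were called between day 10 and day 5, with Gm15883 at -0.40 (0.391), Muc5b at 0.48 (0.345), Muc20 at -0.31 (0.709) and Muc5ac reversed to 0.35. The same covariate gave 1 call at day 5 against vehicle, Muc20 at 0.81 (0.0166), and reversed Muc5b to 0.091, Muc5ac to 0.083 and Muc4 to 0.037 at day 10 against vehicle. With day 10 replicate 1 as the only day 10 library, assumed to vary like the other groups, 0 genes were called between day 10 and day 5, with Gm15883 at -0.28 (0.722), Muc5b at 0.31 (0.720), Muc20 at -0.15 (0.934) and Muc5ac reversed to 0.35; 2 were called at day 5 against vehicle, Muc5b at -0.41 (0.0363) and Muc20 at 0.70 (0.0144). The GC correction left 1 call between day 10 and day 5, with Gm15883 at -0.37 (0.0829) and Muc5b at 0.31 (0.148). Muc5b in that comparison also missed the threshold with upper-quartile scaling at 0.37 (0.0639), without the filter on low counts at 0.41 (0.0917) and with the 8 compared libraries alone at 0.40 (0.0678).

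At day 5 against vehicle, DESeq2 called 2 genes, Muc5b at -0.40 (0.0298) and Muc20 at 0.72 (0.0166), the 8 compared libraries alone called 2, Muc5b at -0.41 (0.0307) and Muc20 at 0.70 (0.0160), limma-voom called 1, Muc20 at 0.71 (0.0429), and the unfiltered fit called 1, Muc20 at 0.70 (0.000551). Without the filter Cyp2f2 was called between day 10 and day 5 at -0.73 (0.00481). Muc5b at day 10 against vehicle turned to 0.0056 with DESeq2's size factors and to 0.0048 with DESeq2's test. Counts of each pair summed give the Cyp2f2 pair the value of Gm15883, -0.45 (0.0239) between day 10 and day 5, and the Muc4 pair the direction of Muc20, 0.027 and 0.64 at day 10 and day 5 against vehicle and -0.62 (0.0379) between them.

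Only replicate numbers 2, 5 and 6 occur in more than 1 group, so a block on them leaves few libraries to estimate the spread. Same-numbered libraries had correlations of deviations of -0.0894 to 0.124 over all tested rows, with no reference range to judge them by. The replicate numbers therefore cannot be said either to pair the libraries or not to. As a replicate block they gave 1 call at day 5 against vehicle, Muc20 at 1.21 (0.000679), reversed Muc5ac there to 0.17 and Muc4 at day 10 against vehicle to 0.29, and left Muc5b at 0.27 (0.329) between day 10 and day 5; calls over all rows went from 933 to 1701, from 87 to 33 and from 1337 to 958 for day 10 from vehicle, day 5 from vehicle and day 10 from day 5, in that order.

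Leaving out each library in turn gave 0 to 1, 0 to 2 and 0 to 3 calls among the 6 genes in those comparisons. The ranges at day 10 against vehicle were -0.33 to -0.16 for Gm15883, called without day 10 replicate 1 (0.0287), -0.10 to 0.08 for Muc5b, -0.18 to 0.29 for Muc20 and -0.39 to 0.040 for Muc4. At day 5 against vehicle they were -0.11 to 0.32 for Cyp2f2, -0.46 to -0.31 for Muc5b and 0.58 to 0.96 for Muc20. Between day 10 and day 5 they were -0.52 to -0.40 for Gm15883, 0.31 to 0.46 for Muc5b, -0.88 to -0.54 for Muc20 and -0.20 to 0.085 for Muc5ac. Share differences in percentage points ran from -0.985 to 2.03 for Muc20 at day 10 against vehicle, from -0.0317 to 0.0809 for Gm15883 and from -1.46 to 3.47 for Muc5ac at day 5 against vehicle, and from -0.000959 to 0.0983 for Gm15883 between day 10 and day 5. Pooling the counts of a group turned the Muc5ac share at day 5 against vehicle from 1.02 to -0.573 points. No share comparison passed in any setting, but most settings could not have passed. With a library left out, the exact test cannot give a p under 0.05, and pooled counts were not tested.

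Calls over all tested rows moved from 933 to 423 with the 8 compared libraries, 412 with the GC correction, 0 with the covariate and 0 with day 10 replicate 1 alone at day 10 against vehicle, and ran from 95 without day 10 replicate 5 to 2684 without day 10 replicate 1. At day 5 against vehicle they moved from 87 to 278 without the filter, 135 with the stricter filter, 514 with DESeq2, 284 with limma-voom, 656 with the 8 compared libraries, 370 with the covariate and 589 with day 10 replicate 1 alone, and ran from 5 without day 5 replicate 5 to 569 without day 10 replicate 1. Between day 10 and day 5 they moved from 1337 to 2 with the covariate and 0 with day 10 replicate 1 alone, and ran from 623 without day 10 replicate 5 to 2689 without day 10 replicate 1. No scaling moved the share of higher calls by over 10 percentage points. Depth limits Muc4 and Cyp2f2 most, with 21 to 103 and 46 to 331 counts a library.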
